A study of Mus musculus with 12 samples.

Results

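Unstimulated Th9 cells, a helper T cell population named for its cytokine IL-9, were compared with unstimulated regulatory T cells (Treg) that had been induced in culture. The comparison was defined by the sample titles alone and used 6 of the 12 arrays of the study, 3 unstimulated Th9 arrays and 3 unstimulated Treg arrays. Each array was a one-colour Agilent expression array of RNA from CD4+ T cells of C57BL/6 mice. The other arrays, 3 of Th2 cells and 3 of restimulated Th9 cells, entered the statistical fit to share its estimate of the spread and are otherwise given only as levels. All cultures began from naive CD4+ cells of spleen and lymph node, were activated through CD3 and CD28, were expanded on day 3 and were harvested on day 5. Th9 cultures received IL-4 at 20 ng/ml, TGF-β at 2 ng/ml and an antibody that neutralises IFN-γ, with IL-4 and TGF-β added again at expansion. For Treg cells the same dose of TGF-β was combined with an antibody that neutralises IL-4, and IL-2 was added at expansion. Both groups therefore held TGF-β, and they differed in IL-4, in both antibodies and in added IL-2, whose effects cannot be told apart. These are populations grown in culture, and it is not stated whether a group's 3 RNAs had separate mice or cultures as their source, so the p-values rest on a spread between arrays that may be technical.

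IL-4 acts through its receptor and the transcription factor STAT6, which in T cells raises the Th2 regulator GATA3 and opposes FOXP3. TGF-β acts through SMAD proteins and, alone with IL-2, turns activated naive T cells into FOXP3-positive Treg cells, while together with IL-4 it drives the IL-9 programme that relies on IRF4, BATF and GATA3. Activated effector T cells are known for high glycolysis and amino acid uptake, and resting T cells for TCF7 and recirculation genes.

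Levels are log2 signals relative to the 75th percentile of the array, so a level of 0 equals that percentile. Of 17926 genes tested with limma, 11474 (64%) were called at an adjusted p (Benjamini-Hochberg) under 0.05, 5153 higher (28.7%) and 6321 lower (35.3%) in Th9 cells. By at least 2-fold, 2759 (15.4%) were higher and 3004 (16.8%) lower. The 3 Th9 arrays lay wholly above the 3 Treg arrays for 5535 genes (30.9%) and wholly below them for 6882 (38.4%). With so large a background, the share of a gene list that was called is read below against these percentages. The median difference over all genes was -0.11, and among 6241 genes measured by more than 1 probe, 477 had probes that disagreed in called direction. Between 59.9 and 63.7% of the probes of an array were well above background. All Th9 arrays shared slide 3, Treg array 1 lay on slide 1 and Treg arrays 2 and 3 on slide 2, so no slide held both groups. A slide term could be fitted only through the restimulated Th9 arrays. Of these, arrays 1 and 2 lay on slide 2 and array 3 on slide 3. Slide 3 was therefore linked through 1 array, whose own deviation cannot be told apart from a slide effect. Summed linear signals on restimulated arrays 1, 2 and 3 were 17.1, 16.4 and 2.97 for CD8 T and NK cell markers. They were 12.5, 17.0 and 4.94 for B cell markers and 0.875, 0.902 and 3.88 for myeloid markers. With the slide term 6299 of the called genes kept call and direction, and 98.5% kept direction. Its value is given beside a gene where it ended the call, turned the sign or moved the log2 value by over 1.5 times. In bulk RNA, fewer cells of a type and less RNA per cell cannot be told apart.

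**Figure D1:**
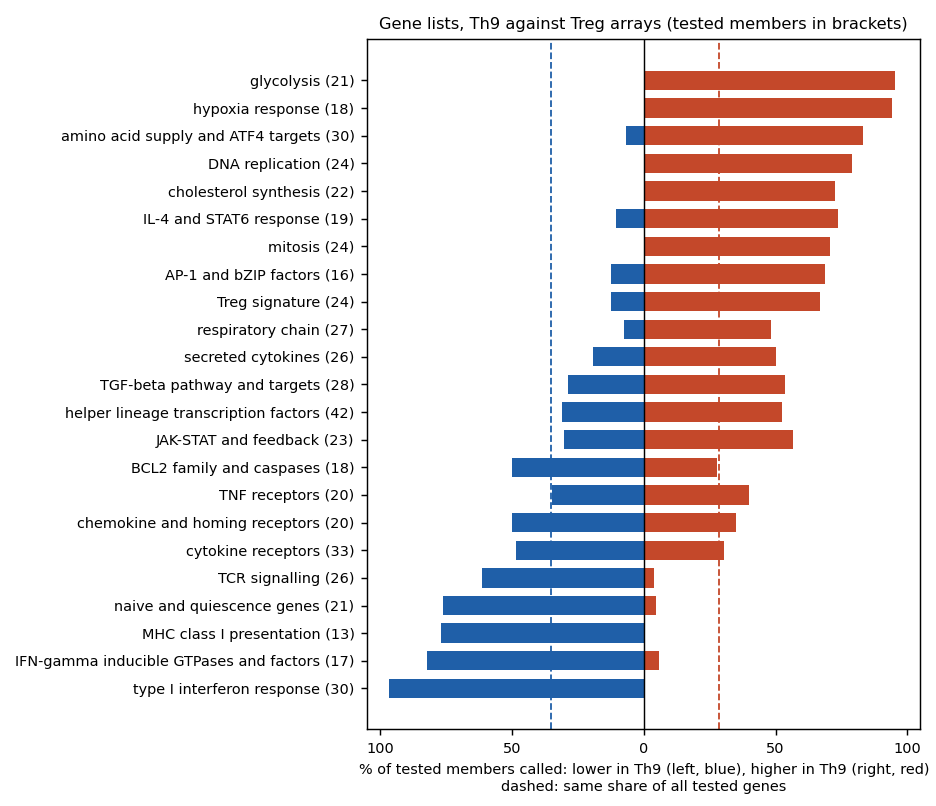
Share of the tested members of 23 gene lists that limma called (adjusted p under 0.05) lower (blue, left) or higher (red, right) in Th9 than in Treg arrays, in percent of tested members, whose number stands in brackets. Dashed lines mark the same shares of all 17926 tested genes, 35.3% lower and 28.7% higher. Glycolysis and hypoxia genes lay at the higher end and type I interferon response genes at the lower end.

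Among genes measured well above background on all 6 arrays, the largest increases in Th9 cells after the cytokine gene Il24 were in genes of metabolic enzymes, signalling proteins and membrane proteins. Mgll, the lipase that releases fatty acids from monoacylglycerol, stood at 3.07, 3.14 and 3.45 on the Th9 arrays and at -5.03, -5.39 and -4.30 on the Treg arrays. Its log2 difference was 8.12 ± 0.33 (SE, n = 3 arrays per group; limma adjusted p = 1.89e-08), a 279-fold change. Plcd1, a phospholipase C that cleaves membrane inositol lipids, differed by 8.05 ± 0.27 (adjusted p = 7.67e-09). Gatm, which makes the precursor of creatine, differed by 8.02 ± 0.29 (adjusted p = 9.77e-09). In all of these the groups were far apart, and the difference between groups exceeded the spread within a group many times over. Only called genes without overlap between the groups were ranked here. Next came the tetraspanin gene Tspan9 (7.99), the matrix protein gene Emilin2 (7.56), the endothelial junction protein gene Jcad (7.40) and P4ha2, a collagen prolyl hydroxylase (7.30). The metal-binding metallothionein gene Mt1 followed at 7.30; its close relative Mt2 differed by 6.80 ± 0.31, and probes of both may bind either transcript. Cyp11a1, the enzyme that begins steroid synthesis from cholesterol, stood at 3.01, 3.28 and 3.59 against -3.61, -4.48 and -3.47 and differed by 7.15 ± 0.25 (adjusted p = 9.59e-09). The list ended with Proser2 (7.13) and the complement gene C3 (7.09).

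Some genes were measured in Th9 cells but not well above background on any Treg array, so that only a bound can be given. Gipr, the receptor of the gut hormone GIP, was at least 915-fold higher in Th9 cells, at 3.95, 4.22 and 3.37 (limma adjusted p = 2.59e-09). Smtnl2, a smoothelin-like protein gene, was at least 579-fold higher, and Oit3 at least 211-fold. Further genes of this kind were Arfgef3 (at least 198-fold), the cytokine gene Il5 (at least 184-fold), Mcf2l, an exchange factor of small GTPases (at least 175-fold), Hey1, a target of Notch signalling (at least 131-fold), the adenosine receptor gene Adora2b (at least 106-fold) and the Wnt receptor gene Fzd7 (at least 93.9-fold).

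**Figure D2:**
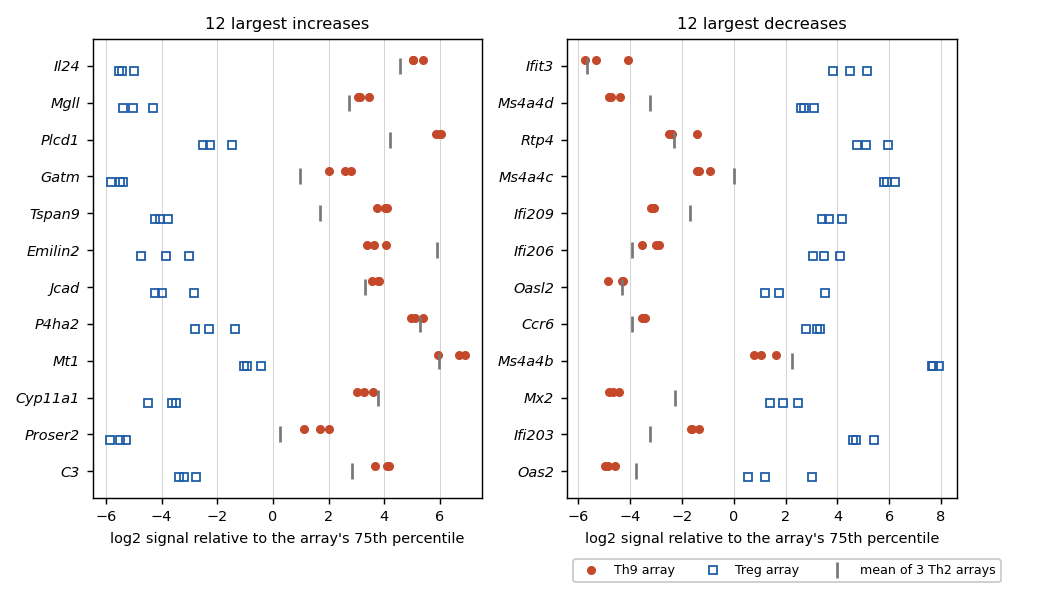
Levels (x axis, log2 signal relative to the array's 75th percentile) of the 12 genes with the largest increases and the 12 with the largest decreases in Th9 cells among probes well above background on all 6 arrays. Red dots are the 3 Th9 arrays, open blue squares the 3 Treg arrays and grey ticks the mean of 3 Th2 arrays. Genes were chosen only among those with no overlap between Th9 and Treg arrays. The spread within a group is widest for Treg in Oasl2 and Oas2.

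Among the genes with the largest decreases, 8 of 12 are known as interferon-induced genes, and 3 belong to the MS4A membrane protein family. Ms4a4d stood at -4.74, -4.40 and -4.82 in Th9 and 2.59, 2.71 and 3.09 in Treg cells (-7.45 ± 0.29, limma adjusted p = 1.36e-08), with Ms4a4c at -7.22 and Ms4a4b at -6.60. These 3 genes are close relatives, as are the interferon-inducible Ifi209 (-6.88), Ifi206 (-6.70) and Ifi203 (-6.46), so probes may share transcripts and their separate values are uncertain. Ccr6, a chemokine receptor of Th17, Treg and B cells, stood at -3.48, -3.44 and -3.54 against 3.34, 3.22 and 2.79 (-6.60 ± 0.29). Among genes not well above background on any Th9 array, Tmprss13, a membrane serine protease, was at least 45.9-fold lower, Ccl3, an inflammatory chemokine, at least 36.7-fold lower (fitted -6.79, and -3.44 with the slide term), Nxpe2 at least 32.0-fold lower and Oosp1 at least 28.2-fold lower. Others in that group, Lyz2 and Ccl6, are myeloid genes and are given with the markers of other cells.

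Genes of the IL-4 and STAT6 response were higher in Th9 cells for 14 of 19 tested members and lower for 2, with a median difference of 1.39. Rnf128, which encodes GRAIL, a ubiquitin ligase of unresponsive T cells, stood at 1.61, 1.61 and 1.60 on Th9 arrays and at -4.61, -4.29 and -4.11 on Treg arrays (5.95 ± 0.31, limma adjusted p = 9.25e-08). Ecm1, an extracellular matrix protein gene of Th2 cells, stood at 7.18, 7.24 and 7.96 against 3.71, 3.93 and 4.27 (3.49 ± 0.20, adjusted p = 1.90e-07). Both genes separated the groups without overlap, as did 30.9% of all tested genes with Th9 above Treg arrays. The receptor chain Il4ra was higher by 1.37 ± 0.22 (adjusted p = 0.000279), but with the slide term by 0.71 (adjusted p = 0.149). Stat6 itself stood at 3.30, 3.13 and 2.83 against 2.93, 2.98 and 2.95, values that overlapped and did not pass the test (0.14 ± 0.15, adjusted p = 0.446; 0.24 with the slide term). The called decreases were those of Bcl6, the regulator of follicular helper T cells (-1.45, and -0.95 with adjusted p = 0.0631 with the slide term), and the chemokine gene Ccl22, at least 2.35-fold lower.

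Of 42 tested transcription factors of helper T cell lineages, 22 were higher (52.4%) and 13 lower (31%), against 28.7% and 35.3% of all genes. The share lower thus lay near that of all genes. Ahr, the aryl hydrocarbon receptor that serves Th17 and Th22 cells, stood at 2.17, 2.09 and 1.99 in Th9 and -1.77, -1.63 and -2.37 in Treg cells (4.01 ± 0.29, limma adjusted p = 7.35e-07). Pparg, a lipid-sensing nuclear receptor gene known in Th9 and Th2 cells, stood at 0.84, 1.30 and 1.82 against -2.98, -3.04 and -2.95 (4.31 ± 0.24, adjusted p = 1.21e-07). Erg, an ETS factor gene, was at least 8.72-fold higher. The Notch partner Rbpj (3.81 ± 0.15) and Bhlhe40, a repressor that limits Il10 (3.01 ± 0.21), were also higher. Among the factors most often named for Th9 cells, Irf4 differed by 3.51, Batf by 2.15 and Gata3 by 1.87. Tbx21, the Th1 regulator T-bet, was lower by a difference of -1.88 ± 0.34 (adjusted p = 0.000644), and -0.47 (adjusted p = 0.362) with the slide term. Myc, a driver of T cell growth, overlapped between groups, at 2.61, 2.43 and 2.19 against 2.48, 2.50 and 2.27 (-0.01 ± 0.15, adjusted p = 0.947; 0.42, adjusted p = 0.233, with the slide term).

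AP-1 and related leucine zipper factors, which act beside IRF4 and BATF, were higher for 11 of 16 members and lower for 2. The shares were 68.8% and 12.5%, against 28.7% and 35.3% of all genes. Atf3, a stress-induced factor, stood at 4.21, 4.48 and 3.62 against -2.04, -1.74 and -1.48 (5.86 ± 0.25, limma adjusted p = 2.77e-08). Batf3, a relative of BATF, differed by 4.0 ± 0.27, Fosl2, a FOS family gene, by 3.50 ± 0.38, and Maff, a small MAF factor gene, by 3.12 ± 0.31. Jun, Fosb and Jund did not pass the test, with differences of 0.52, 0.20 and 0.02 (with the slide term 1.18, adjusted p = 0.0347, for Jun, -0.15 for Fosb and -0.04 for Jund).

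Secreted cytokine genes were higher in Th9 cells for 13 of 26 tested members and lower for 5 (2 with the slide term). In the main fit the shares were 50% and 19.2%, against 28.7% and 35.3% of all genes. Il4 and Il5 of the Th2 locus and Il10 had some of the largest differences measured. Il4 stood at 3.79, 3.91 and 4.18 against -6.47, -6.46 and -5.08 (9.96 ± 0.40, limma adjusted p = 1.75e-08), with 1 of the 3 Treg values well above background. Il10, an inhibitory cytokine that Treg cells also make in the body, differed by 7.96 ± 0.28. Il13, another gene of the Th2 locus, differed far less, at -3.73, -3.18 and -2.80 against -4.98, -5.10 and -5.02 (1.79 ± 0.23, adjusted p = 4.96e-05), and its level was low in both cultures. Il9 itself was at -2.43, -1.18 and -1.47 and at least 19.6-fold higher (adjusted p = 1.94e-07). Il21, a cytokine of follicular and Th17 cells, was at least 9.89-fold higher, and Tgfb3, a TGF-β isoform gene, differed by 3.97 ± 0.28. Il1rn, the IL-1 receptor antagonist, stood at -2.82, -1.98 and -1.88 in Th9 cells and was well above background on 1 Treg array only.

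Of the 5 cytokine genes that fell, 3 encode growth factors that activated T cells secrete, and their values moved with the slide term. Il3 was at least 6.46-fold lower in Th9 cells (fitted -4.95, and -2.50 with the slide term). Il2 was at least 2.38-fold lower (limma adjusted p = 0.00152), with a fitted -2.55 that became -0.67 (adjusted p = 0.502) with the slide term. Csf2, which encodes GM-CSF, stood at -4.81, -4.48 and -4.40 against -2.08, -2.13 and -3.28 (-2.07 ± 0.69, adjusted p = 0.0226), and at 1.18 (adjusted p = 0.129) with the slide term. All 3 genes were far higher on the restimulated Th9 arrays, with mean levels of 4.67, 0.61 and 2.68, through which that term was reached. Ifng, the Th1 cytokine, was higher on every Th9 array (0.45, 0.42 and -0.27) than on any Treg array (-1.0, -1.24 and -1.55) but did not pass the test across the 12 arrays (1.46 ± 0.79, adjusted p = 0.130). It passed when only the 6 arrays were fitted (adjusted p = 0.00213) and with the slide term (5.29, adjusted p = 9.27e-05). The antibody in Th9 cultures binds the IFN-γ protein, not its transcript.

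Of 33 tested cytokine receptor genes 16 were lower (48.5%) and 10 higher (30.3%), against 35.3% and 28.7% of all genes. The receptors of the IL-1 and IL-17 families moved in opposite directions. Il18r1, the binding chain for IL-18, stood at -2.78, -2.78 and -2.12 in Th9 and 2.26, 2.45 and 3.32 in Treg cells (-5.24 ± 0.30, limma adjusted p = 1.51e-07), and its partner Il18rap differed by -2.36 ± 0.42. Il1r2, a decoy receptor that binds IL-1 without signalling, stood at 0.72, 0.35 and 1.79 against -4.07, -4.06 and -5.44 (5.48 ± 0.49, adjusted p = 4.13e-06), while Il1rap, the shared signalling chain, differed by -1.56 ± 0.15. Il17rb, the receptor for IL-25, was at least 25.8-fold higher, at -1.48, -1.80 and -0.61, and Il17ra, its co-receptor, was lower (-2.73 ± 0.20). The groups did not overlap for any of these 6 genes, most of which were listed for their large differences. Th9 arrays lay wholly above Treg arrays for 30.9% of all tested genes and wholly below for 38.4%. Il6ra, the IL-6 receptor (-2.47 ± 0.22), Ifnar1, a chain of the type I interferon receptor (1.35, 0.76 and 0.69 against 2.67, 2.86 and 3.09; -1.94 ± 0.18), and Ifngr1, the binding chain for IFN-γ (-1.62 ± 0.23), were lower. Il2ra, the high-affinity IL-2 receptor chain CD25 and a marker shared by Treg and activated cells, stood at 3.78, 3.75 and 4.06 against 2.00, 1.90 and 1.88 and was thus higher in Th9 than in Treg cells (1.94 ± 0.13, adjusted p = 5.66e-07).

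**Figure D3:**
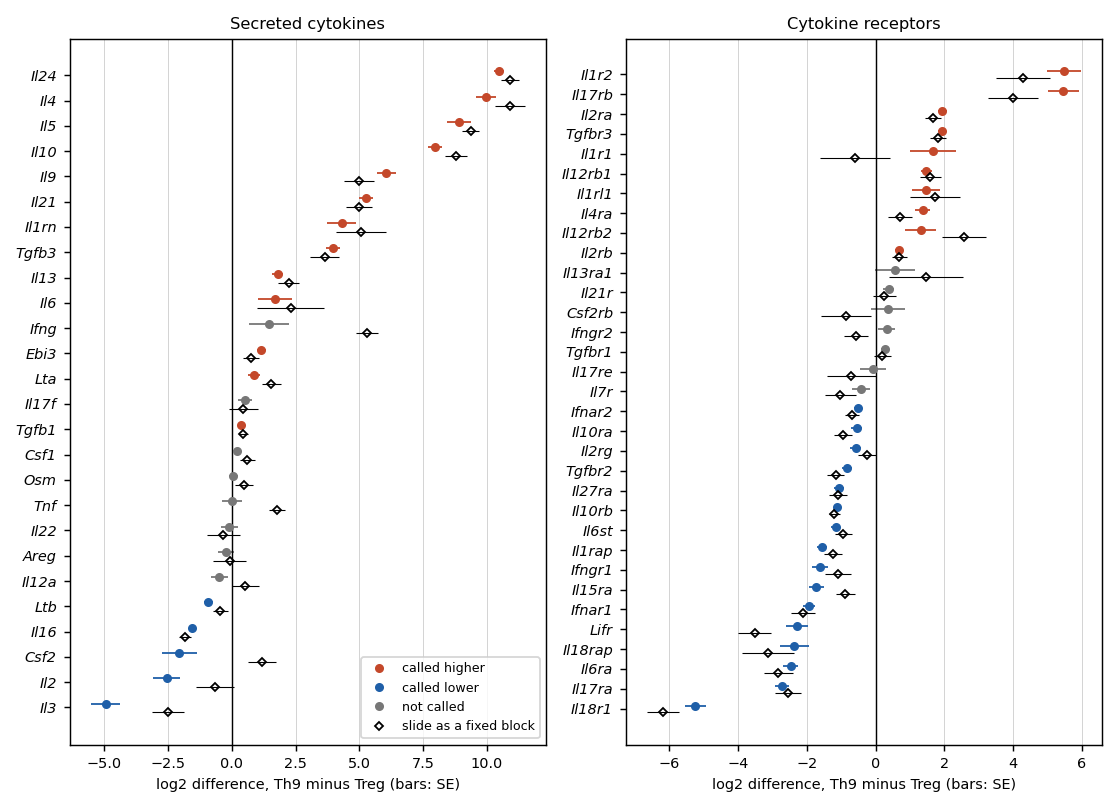
Log2 differences, Th9 minus Treg (x axis; bars are the SE), of 26 secreted cytokine genes and 33 cytokine receptor genes. Coloured dots are the limma fit to 12 arrays, red where called higher, blue where called lower and grey where not called; open black diamonds are the fit with the slide as a fixed block. The dots and diamonds of Ifng, Tnf and Csf2 lie well apart, while those of Il24, Il4, Il5, Il10 and Il18r1 lie on the same side and far from 0.

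Receptors that guide migration moved in both directions. Ccr4, a receptor of skin-homing and Th2 cells, stood at 1.16, 1.43 and 1.39 against -3.09, -3.12 and -2.39 (4.19 ± 0.19, limma adjusted p = 3.99e-08), and its relative Ccr8 differed by 5.75 ± 0.16. Cxcr4, the receptor for CXCL12, was higher by 3.39 ± 0.25. Ltb4r1, the leukotriene B4 receptor, differed by 4.41 ± 0.67, but with the slide term by 2.49 (adjusted p = 0.111). Lower were Cxcr3, a Th1 receptor (-5.20 ± 0.40), and Cxcr5, the follicle homing receptor (-3.85 ± 0.25). B cell markers were also lower in Th9 arrays, and the part of B cells in lower receptor genes such as Cxcr5 and Ccr6 was not tested. In all, 7 of 20 tested homing receptors were higher and 10 lower, 35.0% and 50.0% against 28.7% and 35.3% of all genes.

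Of 20 TNF receptor genes, 8 were higher (40%) and 7 lower (35%), and of 14 TNF ligands 4 (28.6%) and 3 (21.4%). Over all genes the shares were 28.7% and 35.3%. Tnfrsf8, which encodes CD30, was at least 63.4-fold higher in Th9 cells (-0.15, 0.01 and 0.22; limma adjusted p = 9.66e-09). Tnfrsf4, which encodes OX40 and is a costimulator that promotes IL-9, stood at 6.88, 6.87 and 6.79 against 4.11, 4.02 and 3.95 (2.82 ± 0.11, adjusted p = 1.75e-08). Cd27, a costimulator of resting T cells and B cells, was lower by -2.98 ± 0.40, and by -1.25 with the slide term. Among ligands, Tnfsf13b, the B cell survival factor BAFF, differed by 3.17 ± 0.26 and Tnfsf14, which encodes LIGHT, by 2.79 ± 0.26. Among 22 costimulatory and inhibitory receptors 9 were higher and 9 lower (40.9% each, against 28.7% and 35.3% of all genes). Havcr2, which encodes the inhibitory receptor TIM-3, was higher by 2.79 ± 0.56 (4.75 with the slide term), and the B7 ligand genes Cd80 (-2.75 ± 0.23) and Cd86 (-2.17 ± 0.29) were lower.

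Genes of the hypoxia response, which HIF-1 drives through sites that hold the letters ACGTGC, were higher in Th9 cells for 17 of 18 tested members and lower for none, with a median difference of 3.68. Ero1a, which oxidises new disulfide bonds in the endoplasmic reticulum, stood at 5.57, 5.64 and 5.72 in Th9 and -0.01, -0.05 and 0.16 in Treg cells (5.61 ± 0.14, limma adjusted p = 1.21e-09). The adenylate kinase gene Ak4 differed by 5.54 ± 0.27, the peptide hormone gene Adm by 5.48 ± 0.36, and Bnip3, which marks mitochondria for removal, by 4.92 ± 0.33. Egln3, an oxygen-sensing hydroxylase that acts on HIF proteins, differed by 4.84 ± 0.25. Pdk1, the kinase that keeps pyruvate out of mitochondria, was the single member not called, at 3.11, 3.28 and 2.95 against 3.11, 3.20 and 3.15 (-0.04 ± 0.22, adjusted p = 0.889; -0.86, adjusted p = 0.0598, with the slide term). Hif1a itself differed by 1.39 ± 0.18 (adjusted p = 6.30e-05). P4ha2, which had the largest difference in the list, stood at 5.11, 5.37 and 4.96 against -2.31, -2.80 and -1.35. The stretch below lies before its RefSeq start site (GRCm38.p6, chr11:54100791-54100906, plus strand) and is shown because it holds the searched hypoxia letters, in capitals.
P4ha2: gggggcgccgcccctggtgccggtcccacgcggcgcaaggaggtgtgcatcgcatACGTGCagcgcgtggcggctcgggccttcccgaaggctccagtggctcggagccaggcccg
The letters ACGTGC on either strand were found in 42.3% of the 26 promoter windows (250 bases before to 50 after the start) that RefSeq gave for 16 of the 18 hypoxia genes, and in 25% of the 32 windows of 20 glycolysis genes. Over all 32851 promoter windows the share was 5.91%, and over windows of tested genes it was 7.78%. It was 9.65% over windows of genes called higher and 6.4% over those of genes called lower.

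Glycolysis genes were higher for 20 of 21 members, with a median of 2.66, and Pfkfb4 alone was not called (0.18 ± 0.16; -0.18 with the slide term). The count of 20 was the same under every alternative setting run. Aldoc, an aldolase, stood at 5.44, 5.20 and 5.16 against 0.81, 0.69 and 2.29 (4.0 ± 0.34, limma adjusted p = 2.87e-06). Tpi1, triose phosphate isomerase, differed by 3.41 ± 0.15, the glucose transporter gene Slc2a3 by 3.33 ± 0.22 and Pgk1, phosphoglycerate kinase, by 3.27 ± 0.20. The mitochondrial respiratory chain had much smaller differences: 13 of 27 members were called higher and 2 lower, none by 2-fold, over a range of -0.70 (Ndufa5, a subunit of complex I; -0.69, adjusted p = 0.0653, with the slide term) to 0.74 (Cox5a, a subunit of complex IV). With the slide term 4 respiratory chain members were called higher and 0 lower. Between 7 and 12 were called higher when any 1 array was left out, fewest (7) without Th9 array 2 or without Treg array 2 and 8 without Th9 array 3 or Treg array 1. Without Th9 array 3, 5 were called lower. Of 16 tricarboxylic acid cycle genes 8 were higher (50%) and 2 lower (12.5%), against 28.7% and 35.3% of all genes. Among the higher ones Cs, citrate synthase, stood at 5.88, 6.10 and 6.16 against 4.99, 4.91 and 4.99 (1.09 ± 0.09). That count of 8 fell to 2 with the slide term and to 5 without Treg array 1.

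Genes of amino acid supply, most of them targets of the stress factor ATF4, were higher for 25 of 30 members and lower for 2, with a median of 2.08. Vldlr, a lipoprotein receptor whose gene ATF4 activates, stood at 4.01, 4.16 and 3.71 against -2.45, -2.93 and -3.15 (6.81 ± 0.23, limma adjusted p = 6.37e-09). Stc2, a secreted glycoprotein gene of the same pathway, differed by 5.06 ± 0.16. Pycr1, the last enzyme of proline synthesis, stood at -1.75, -1.19 and -0.42 against -5.49, -7.01 and -5.98 (5.04 ± 0.41, adjusted p = 1.98e-06), with 2 of 3 Treg values well above background. Cth, which makes cysteine from cystathionine, differed by 4.50 ± 0.34, the factor gene Atf5 by 3.63 ± 0.17 and Asns, asparagine synthetase, by 3.46 ± 0.28. Atf4 transcript itself stood at 3.86, 4.0 and 4.28 against 1.49, 1.47 and 1.98 (2.40 ± 0.21, adjusted p = 2.78e-06). The 2 members that fell were transporters, Slc43a1 for large neutral amino acids (-2.50 ± 0.29) and Slc1a5 for glutamine (-0.71 ± 0.18, and -0.51 with adjusted p = 0.306 with the slide term). Of all promoter windows 3.97% held the letters TGATGNAA, the ATF4 and C/EBP composite element, on either strand. The share was 2.37% for tested genes, 2.13% for genes called higher and 2.43% for genes called lower. Of the 30 windows of 26 list genes 26.7% held the letters. They are in capitals in the stretches before the start of the 2 list genes with the largest differences that hold them, Vldlr (GRCm38.p6, chr19:27216770-27216882, plus strand) and Pycr1 (chr11:120643789-120643906, minus strand).
Vldlr: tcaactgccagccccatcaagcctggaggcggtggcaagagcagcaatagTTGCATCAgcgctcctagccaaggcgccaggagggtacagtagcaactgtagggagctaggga
Pycr1: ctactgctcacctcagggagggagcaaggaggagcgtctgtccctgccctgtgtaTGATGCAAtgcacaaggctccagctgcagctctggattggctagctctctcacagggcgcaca
In Vldlr the match lies on the strand opposite to the one printed.

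**Figure D4:**
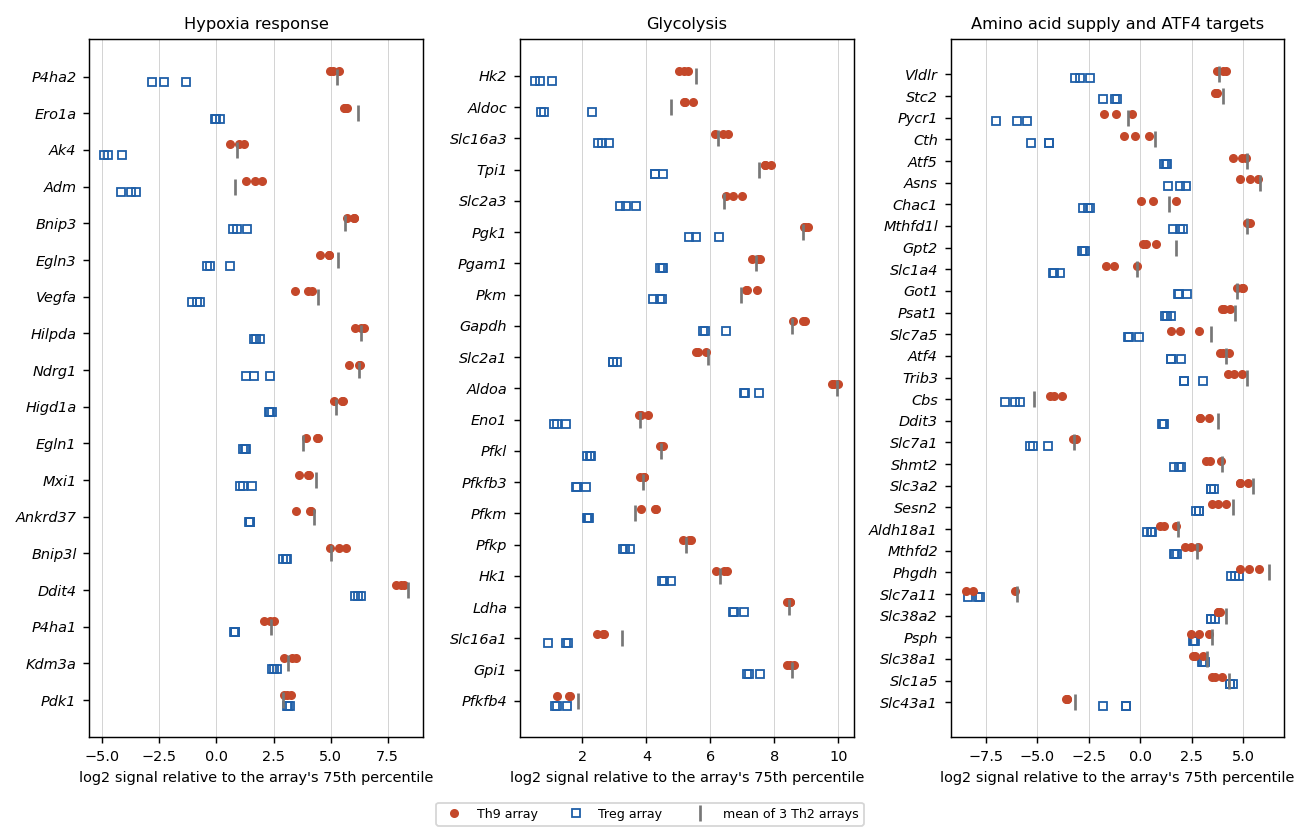
Levels (x axis, log2 signal relative to the array's 75th percentile) of the tested genes of the hypoxia, glycolysis and amino acid lists, ordered by difference. Red dots are Th9 arrays, open blue squares Treg arrays and grey ticks the mean of 3 Th2 arrays. Th9 arrays lie above Treg arrays without overlap for 17 of 18 hypoxia genes, 20 of 21 glycolysis genes and 25 of 30 amino acid genes. Over all tested genes this share was 30.9%.

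Lipid genes followed with smaller differences. Cholesterol synthesis genes were higher for 16 of 22 members and lower for none, with a median of 0.97. Hsd17b7, which acts late in the pathway, stood at 2.03, 2.29 and 2.18 against -1.74, -1.97 and -1.87 (4.03 ± 0.33, limma adjusted p = 1.95e-06). Treg array 3 was the highest Treg array for 20 of the 22 genes, 13 to 18 members were called when any 1 array was left out (18 without that array), and 7 were called with the slide term. Genes of cholesterol efflux, which the nuclear receptor LXR induces, were lower for 5 of 6, among them Mylip, a ubiquitin ligase that removes the LDL receptor (-2.57 ± 0.27; -1.54 with the slide term), and the exporter genes Abcg1 (-1.69 ± 0.18; -1.05 with the slide term) and Abca1 (-1.29 ± 0.14). Among 13 fatty acid synthesis genes, 8 were higher (4 with the slide term) and 1 lower: malic enzyme Me1 was at least 10.4-fold higher (fitted 5.23, and 3.25 with the slide term), and the desaturase genes Fads2 (2.82 ± 0.23) and Scd2 (1.98 ± 0.19) were higher. Fatty acid oxidation genes were called higher for 9 of 16 members, by at most 1.18 (Hadh, a dehydrogenase of the pathway; 0.42, adjusted p = 0.0836, with the slide term), and with the slide term 1 member was higher and 2 were lower.

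Genes of DNA replication were higher for 19 of 24 and of mitosis for 17 of 24 members, lower for none, with medians of 0.97 and 1.11. Gins2, a subunit of the replicative helicase, stood at 1.19, 1.27 and 1.66 against -0.42, -1.17 and -0.66 (2.12 ± 0.21, limma adjusted p = 7.23e-06). Ttk, a kinase of the spindle checkpoint, stood at -1.79, -1.91 and -1.69 against -3.76, -4.52 and -3.29 (2.06 ± 0.28, adjusted p = 8.00e-05). Treg array 3 was the highest Treg array for 24 of 24 mitosis genes but for 2 of 24 replication genes, against 41.0% of all tested genes. Without that array 23 mitosis genes were called, without the Th9 and Treg arrays numbered 3 the replication count was 10, and with the slide term 6 replication and 9 mitosis genes. Among regulators of the cell cycle start, Cdkn1a, the inhibitor p21, stood at 2.90, 2.06 and 1.66 against -1.96, -1.98 and -2.14 (4.23 ± 0.29, adjusted p = 5.12e-07), and the kinase gene Cdk6 differed by 3.24 ± 0.15.

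Protein folding genes of the endoplasmic reticulum were higher for 13 of 25 (52%) and lower for 5 (20%), against 28.7% and 35.3% of all genes. P4hb, protein disulfide isomerase (2.75 ± 0.11), and Xbp1, a factor of the unfolded protein response and of STAT6 (2.46 ± 0.10, limma adjusted p = 1.97e-08), had the largest differences. Ribosome biogenesis genes were split, 7 higher and 6 lower of 20 (35% and 30%), with a median of 0.01. Both shares lay near the 28.7% and 35.3% of all genes. The nucleolar chaperone gene Npm1 differed by 1.42 ± 0.16 and Polr1a, the largest subunit of RNA polymerase I, by -1.58 ± 0.18.

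Genes of the type I interferon response were lower in Th9 cells for 29 of 30 tested members, with a median difference of -3.23. The count of 29 was the same under every alternative setting run. Ifit3, an antiviral protein with tetratricopeptide repeats, stood at -5.76, -5.34 and -4.08 in Th9 and 3.83, 4.49 and 5.14 in Treg cells (-9.55 ± 0.51, limma adjusted p = 1.03e-07), a 749-fold difference. Ifit3b, a near-identical neighbour that may share its signal, was at least 139-fold lower. Ifi44 was well above background on 1 Th9 array and differed by -8.76 ± 0.77. Rtp4, an interferon-induced receptor transporter, differed by -7.37 ± 0.56, Mx2, a dynamin-like antiviral GTPase, by -6.57 ± 0.42 and Oas2, which makes the activator of RNase L, by -6.39 ± 0.56. Dhx58, an RNA sensor, was the single member not called, at 2.88, 2.81 and 2.18 against 2.68, 3.02 and 3.32 (-0.38 ± 0.24, adjusted p = 0.181; -0.87, adjusted p = 0.142, with the slide term). The Treg arrays differed among themselves: the median level of the 30 genes was 2.61, 3.00 and 3.58 on Treg arrays 1, 2 and 3, and array 3 was the highest for 29 of the 30. It was -1.07, -1.12 and -0.90 on the Th9 arrays. On Oas2, for example, the Treg arrays stood at 0.53, 1.19 and 3.02 and the Th9 arrays at -4.85, -4.99 and -4.60, so that the groups stayed apart.

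The letters GAAA, any 2 bases and GAAA again, a core of the interferon-stimulated response element, were searched on either strand. They were found in 52.2% of the 23 promoter windows of 19 list genes and in 3.44% of all promoter windows. Over windows of tested genes the share was 3.08%, and over those of genes called lower and called higher it was 3.79% and 2.70%. Among the 252 windows of genes called lower by a log2 difference of at least 3 the share was 13.5%. The stretches below come from the 2 list genes with the largest differences that hold them, with the matches, here on the opposite strand, in capitals: Ifit3 (GRCm38.p6, chr19:34583352-34583471, plus strand) with 2 matches and Rsad2, which encodes the antiviral enzyme viperin (chr12:26456508-26456627, minus strand), with 1.
Ifit3: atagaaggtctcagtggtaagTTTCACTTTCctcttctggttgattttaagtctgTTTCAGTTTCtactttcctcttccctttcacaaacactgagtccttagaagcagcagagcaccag
Rsad2: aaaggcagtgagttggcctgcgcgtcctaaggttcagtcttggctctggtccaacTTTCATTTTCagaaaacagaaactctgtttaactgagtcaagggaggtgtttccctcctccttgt
A match of letters describes these windows and is no measure of binding. The same search found the STAT6 letters TTC, any 4 bases and GAA in 2 of 20 windows of 16 IL-4 response genes (10.0%). Both were windows of genes that were not called. The share was 6.95% of all windows and 5.58% of windows of tested genes. The letters TTCNNNGAA, bound by other STAT proteins, were in 43.8% of the 16 windows of the IFN-γ list. They were in 8.30% of all windows and in 6.87% of windows of tested genes. The sterol letters TCACNCCAC were in 1 of the 18 windows of the cholesterol synthesis list (5.56%). Of all windows 1.24% held them, and of windows of tested genes 1.12%.

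**Figure D5:**
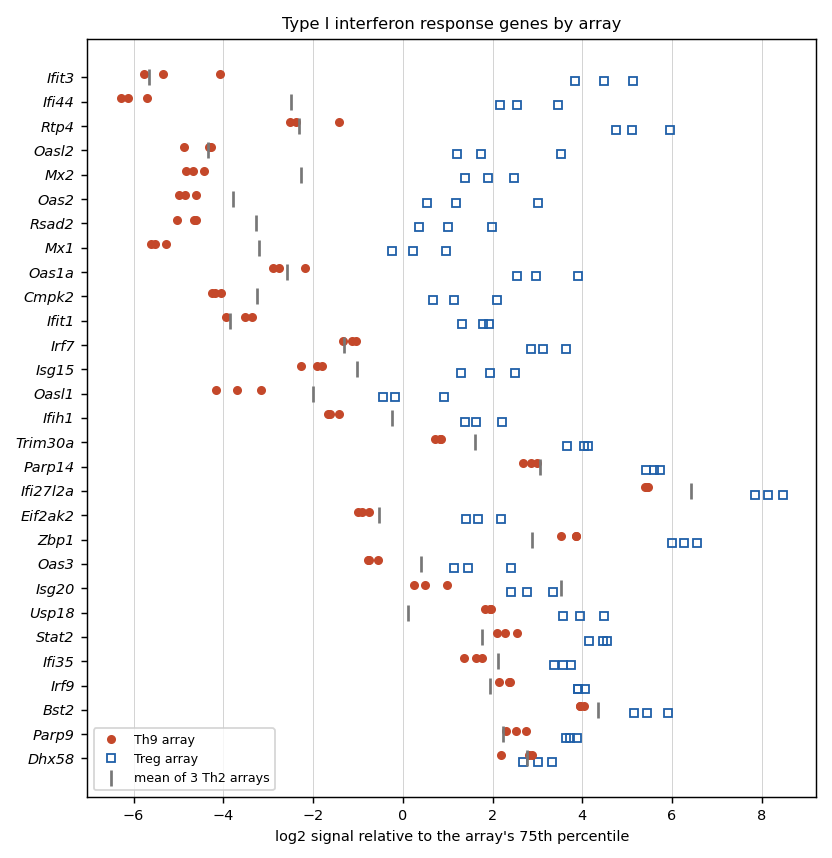
Levels (x axis, log2 signal relative to the array's 75th percentile) of 29 of the 30 tested type I interferon response genes. Red dots are Th9 arrays, open blue squares Treg arrays and grey ticks the mean of 3 Th2 arrays. Th9 and Treg arrays do not overlap except for Dhx58, and the rightmost Treg square is array 3 in each gene plotted. Th9 arrays lay wholly below Treg arrays for 38.4% of all tested genes.

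Stat2, which relays the type I interferon signal, was lower with its targets, at 2.11, 2.54 and 2.28 against 4.16, 4.46 and 4.55 (-2.08 ± 0.16, limma adjusted p = 1.40e-06). Of 23 genes of JAK-STAT signalling and its feedback, 13 were higher (56.5%) and 7 lower (30.4%), against 28.7% and 35.3% of all genes. The higher ones included genes that STAT5 induces, such as Cish and Pim3. Cish, a feedback inhibitor, stood at 6.42, 6.56 and 6.38 against 3.80, 3.68 and 2.89 (2.99 ± 0.21). Pim3, a survival kinase, differed by 3.24 ± 0.22. The part of the IL-2 added to Treg cultures was not tested and cannot be told apart from that of IL-4 and the antibodies. Genes induced by IFN-γ were lower for 14 of 17 tested members and higher for 1, the feedback inhibitor gene Socs1. Irgm2, a GTPase of vacuole defence, stood at 2.97, 2.85 and 2.03 against 5.61, 5.70 and 5.74 (-3.07 ± 0.21, adjusted p = 4.75e-07). Iigp1, another such GTPase, differed by -3.62 ± 0.63, but by -2.05 (adjusted p = 0.175) with the slide term. Genes of MHC class I presentation were lower for 10 of 13 members: Psmb10, a subunit of the immunoproteasome, differed by -1.75 ± 0.11 and Tapbp, which loads peptides, by -1.69 ± 0.13. With the slide term 9 genes of the IFN-γ list and 5 of the MHC class I list were called lower.

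Genes of naive and quiescent T cells were lower in Th9 cells for 16 of 21 members and higher for 1. Dapl1, a gene of resting T cells, stood at -1.23, -1.64 and -0.49 against 3.44, 3.79 and 4.29 (-4.96 ± 0.30, limma adjusted p = 2.40e-07). Txnip, which limits glucose uptake, differed by -4.18 ± 0.23 and Slfn1, a Schlafen family gene of quiescent T cells, by -3.45 ± 0.23. T cell receptor signalling genes were lower for 16 of 26 members and higher for 1 (35.3% and 28.7% of all genes). The Tec kinase gene Txk differed by -2.93 ± 0.36 and Cblb, a ubiquitin ligase that restrains activation, by -2.77 ± 0.44 (-1.93, adjusted p = 0.107, with the slide term), while the kinase gene Lck differed by -0.66 ± 0.09. Genes of phosphatases and Sprouty proteins that feed back on this signal were higher for 12 of 15 and lower for 2. Dusp4, which inactivates MAP kinases, stood at 4.90, 5.07 and 4.85 against 2.10, 1.80 and 2.31 (2.87 ± 0.20, adjusted p = 6.52e-07).

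Of 28 genes of the TGF-β pathway and its targets, 15 were higher (53.6%) and 8 lower (28.6%), in cultures that both held the cytokine. Over all genes the shares were 28.7% and 35.3%. Ltbp3, which binds latent TGF-β to the matrix, stood at 2.04, 1.82 and 1.43 against -3.52, -3.47 and -3.26 (5.18 ± 0.27, limma adjusted p = 8.04e-08), and Ccn2, a secreted matrix regulator, was at least 13.0-fold higher. The inhibitors of DNA binding moved apart: Id2 differed by 3.18 ± 0.12 and Id3 by -5.47 ± 0.19. Itgae, the integrin chain CD103, was higher by 1.57 ± 0.37 (3.03 with the slide term). Receptor and SMAD genes differed little or by less than 1 unit, apart from the co-receptor gene Tgfbr3 (1.93 ± 0.12). Tgfbr2 (-0.84) and Smurf1 (0.80; 0.78, adjusted p = 0.0595, with the slide term) each had another probe called in the opposite direction.

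Of 24 tested genes listed as a Treg signature, 16 were higher in the Th9 cultures (66.7%) and 3 lower (12.5%). Over all genes the shares were 28.7% and 35.3%. The members that fell were Foxp3 (-1.98, -2.07 and -1.90 against 0.78, 0.49 and 0.43; -2.55 ± 0.22, limma adjusted p = 3.13e-06), Ikzf2, which encodes Helios (-1.46 ± 0.26; -0.76, adjusted p = 0.205, with the slide term), and Izumo1r, the folate receptor of Treg cells (-0.58 ± 0.13; -0.67, adjusted p = 0.0694, with the slide term). Foxp3 was well above background on every Th9 and Treg array. Those that rose included Il10, Tnfrsf9, Tnfrsf4, Il2ra and Ctla4, the inhibitory receptor (0.83 ± 0.32, adjusted p = 0.0394, and 0.38 with adjusted p = 0.664 with the slide term). Of 12 granzyme and killer cell genes 6 were higher (50%) and 1 lower (8.33%), and with the slide term 11 and 0. Gzma stood at 3.99, 3.45 and 3.63 against -3.10, -3.0 and -1.36 (6.18 ± 0.52, adjusted p = 2.49e-06) and Gzmb differed by 2.65 ± 0.54 (4.76 with the slide term), while perforin, Prf1, overlapped between groups (-0.25 ± 0.81, adjusted p = 0.803; 3.37, adjusted p = 0.00246, with the slide term). Granzyme genes are close relatives whose probes may cross-react.

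Defining T cell transcripts were present in every array, and markers of other cells were measured beside them, mostly higher in Treg cultures. Of 9 T cell markers 7 were lower and none higher in Th9 cells, with a summed linear signal of 235 to 252 times the 75th percentile in Th9 and 530 to 671 in Treg arrays, while Cd2 and Cd4 were not called. Of 15 B cell markers 13 were lower and none higher, and every one was well above background on all 6 arrays. Their summed signal was 36.8 to 43.7 in Th9 and 355 to 399 in Treg arrays, and 8.40 to 11.0 against 98.6 to 137 without the immunoglobulin gene Ighm. With the slide term, 10 B cell markers were called lower and 1, Fcer2a, higher. Ly6d, a B lineage antigen, stood at -2.58, -2.28 and -2.14 against 3.58, 3.67 and 3.22 (-5.83 ± 0.29, limma adjusted p = 6.66e-08).

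Of 8 MHC class II genes 6 were lower and none higher, 3 of them with the slide term, with summed signals of 55.4 to 72.3 in Th9 and 89.2 to 126 in Treg arrays. Ciita, their regulator and also a member of the IFN-γ list, differed by -2.93 ± 0.41 (-1.25, limma adjusted p = 0.0892, with the slide term). Of 10 myeloid and dendritic cell markers tested (14 on the array), 6 were lower and 2 higher. The higher ones included Adgre1, at 0.54, 0.61 and 1.35 in Th9 and -1.83, -2.16 and -2.12 in Treg cells. It differed by 2.87 ± 0.30 (limma adjusted p = 1.22e-05), and by 1.86 (adjusted p = 0.00549) with the slide term. Lyz2, lysozyme of macrophages, was at 0.95, -0.45 and 0.75 on the Treg arrays and at least 91.9-fold lower in Th9 cells (adjusted p = 1.58e-06), where it and Itgam, the integrin chain CD11b, were not well above background on any array. Lyz2 cannot be separated from its relative Lyz1. The chemokine gene Ccl6 was at least 43.1-fold lower in Th9 cells. The summed myeloid signal was 2.15 to 3.18 in Th9 and 1.68 to 2.98 in Treg arrays. Markers of mast cells (0.203 to 0.236 against 0.353 to 0.603) and of red cells and platelets (0.0915 to 0.115 against 0.190 to 0.316) were also lower in sum in Th9 arrays. Of 4 stroma markers tested, Pdgfrb (3.72 ± 0.32, and not well above background on any Treg array) and Col1a1 (1.67 ± 0.31; 0.75, adjusted p = 0.256, with the slide term) were higher in Th9 cells and Pecam1 was lower (-1.37 ± 0.12). Pecam1 had by far the highest level of these, and the stroma sum was 1.43 to 1.5 in Th9 and 3.05 to 3.71 in Treg arrays. Of 8 tested CD8 T and NK cell markers 2 were higher (25%) and 1 lower (12.5%), and with the slide term 5 and 0. Their sums overlapped (23.7 to 30.9 in Th9 against 23.9 to 44.5 in Treg arrays). The part of other cells in the lower interferon, MHC and costimulatory ligand genes of Th9 cultures was not tested. Nor was it for lower receptor genes such as Ccr6, Cxcr5 and Cd27.

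The levels of the Th2 arrays, cultures with IL-4 and without TGF-β, are given for orientation and carry no test here. The Th2 mean lay nearer to the Th9 than to the Treg mean for 18 of 18 hypoxia genes, 21 of 21 glycolysis genes, 27 of 30 amino acid genes and 29 of 30 type I interferon genes, against 75% of all tested genes. Among genes called higher and called lower the share was 84.5% and 83.8%, and among those called with a log2 difference of at least 3 in size it was 87.1% and 96.4%, close to the shares in these lists. Median levels over the hypoxia list were 4.72 in Th2, 4.53 in Th9 and 1.25 in Treg cells. Over the type I interferon list they were -0.38, -1.03 and 3.08. Genes for which Th2 means lay with Treg cells included Il17rb, at -6.73 in Th2, -1.30 in Th9 and -6.76 in Treg cells, Erg, at -8.19, -2.87 and -7.30, and Tnfsf13b, at -2.39, 1.90 and -1.27.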

How the data were processed

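RNA of 12 samples (0.5 µg each) was hybridised to one-colour Agilent arrays. The deposited intensity values are background-corrected signals that Agilent Feature Extraction 10.5.1.1 wrote, per the file headers; the deposited log2 table of the authors served as an alternative, and its centring is not given in the sources used here. Here log2 of the signal minus the array's 75th percentile was taken, spots of a probe were averaged, control spots and outlier flags were left out, and 1 probe per gene was kept. Groups came from the titles. A limma fit to all 12 arrays gave Benjamini-Hochberg adjusted p-values over 17926 genes. It was tested on simulated data, with the outcome not reported here, so that test lends the calls no support. For a probe not well above background in one group, a fold called "at least" divides the other group's mean by a limit, which on each array is the dim probe's value or, where larger, that of the weakest probe well above background. Members and lists were chosen with earlier results of these data known. Named genes were the 12 largest differences each way measured on all 6 arrays, the 10 largest bounds each way, up to 6 called members of each list and a set of lineage genes. All other genes named were chosen after their values were seen: Atf4, Bcl6, Bhlhe40, Cd2, Cd4, Csf2, Ctla4, Cxcr4, Cxcr5, Dhx58, Fcer2a, Fosb, Hif1a, Ifnar1, Ifngr1, Ighm, Ikzf2, Il1rap, Il1rn, Il2, Il3, Il4ra, Izumo1r, Jun, Jund, Lck, Mt2, Pdk1, Pfkfb4, Prf1, Rbpj, Rsad2, Slc1a5, Slc43a1, Smurf1, Socs1, Stat6, Tgfbr2, Tgfbr3 and Tnf. Some genes are not reported here. The arrays give no read depth, and their number limits the precision.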

Additional observations from a re-analysis of the deposited data

How the results depend on the processing

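Background correction with normexp gave 4546 genes higher and 7020 lower, and 1757 and 1684 by at least 2-fold. Scaling to the median gave 5403 higher and 5610 lower, the deposited log2 values gave 5282 and 6313, and fitting the 6 arrays alone 4924 and 6116. With the slide as a fixed block 3156 were higher and 3529 lower, since no slide held both groups and the median SE rose from 0.166 to 0.293. Leaving out 1 array at a time gave 4649 to 5150 higher and 5609 to 6070 lower. Same-numbered arrays of both groups did not deviate together in every pair (correlations of 0.0484, 0.141 and 0.118), so the numbers were not used as pairs, and the replicate block gave 5174 and 6361. With the fixed slide block Xcl1, a chemokine gene, turned from -3.51 to 0.33 and Etfdh, of fatty acid oxidation, from 0.46 to -0.01. Both lost their call, as did 47 others of the 288 named genes with no change of sign.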
